A study of Homo sapiens with 16 samples.

Results

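The genes of cholesterol synthesis and of its control by SREBP2 were followed in SUM225 cells during inhibition of HER2. The module named 28 genes by symbol, covering the pathway from its entry to the last reductions of the sterol ring, the proteins that hold or escort SREBP2, and carriers of cholesterol. Probes were taken by these symbols where they were detected (detection p under 0.05, the share of negative control beads at least as bright) on 3 or more of the 16 arrays. This left 29 probes of 24 genes, among 16110 probes of 13108 genes that passed in the whole table of 24526 probes. Of the other 4 genes, ACAT2 was detected on 0 arrays and STARD4 on 1, while FDPS and HSD17B7 were not analysed here because no probe was used under those symbols.

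SUM225 is a breast cancer line with amplification and over expression of HER2, which by the sample labels was grown with fetal bovine serum, insulin and hydrocortisone, whereas the study's methods give a serum-free medium without insulin. All cultures received 1 µM CP724,714, a small molecule inhibitor of the HER2 kinase, and RNA was taken at 3 h intervals, from 0 to 45 h, each time from another parallel culture. A time point was thus 1 culture on 1 Illumina bead array, and no untreated culture was followed over the same hours. The study's methods, written for its MCF10A lines, also give fresh medium when the inhibitor was added. Effects of the inhibitor, of fresh medium and of time in culture therefore cannot be told apart. All values come from 1 line, and every p-value below rests on the scatter of arrays around a fitted course, not on repeated cultures.

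Cells make cholesterol from acetyl-CoA through mevalonate, isoprenoid pyrophosphates, squalene and lanosterol. Most genes of the pathway are targets of SREBP2, a transcription factor made as a membrane protein of the endoplasmic reticulum. When sterols are scarce, SCAP escorts SREBP2 to the Golgi, where it is cut and released. When sterols are plentiful, INSIG proteins hold SCAP and SREBP2 back, and the pathway is transcribed less. SREBP2 acts on promoters together with other factors, among them NF-Y, which binds the sequence CCAAT.

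Values are log2 intensities after background correction and quantile normalization, so that 1 unit is a doubling, and levels of different probes were not compared. Between 14110 and 15073 probes were detected per array. The luminal epithelial markers KRT8, KRT18, KRT19, CDH1, TACSTD1 and ERBB2 were detected on all 16 arrays, and KRT18 (linear change over 45 h -0.74, limma adjusted p = 7.73e-06) and KRT8 (-0.68, limma adjusted p = 2.14e-05) fell. The fibroblast genes COL3A1, DCN and LUM and the leukocyte gene PTPRC were detected on 0, whereas COL1A1 and COL1A2 were detected on 5, and CD14, LYZ and PECAM1 on 16. The endothelial gene VWF, detected on 13, rose by 2.51 (limma adjusted p = 4.03e-07). The part of these changes in the results on sterol genes was not tested. The arrays fall into 4 sets of consecutive time points, which start at 0, 12, 24 and 36 h and between which many probes step. The sets were seen in the values, since no batch is named in the labels. A change between sets and a change with time cannot be told apart at their borders, so changes within sets are given as well.

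Most enzymes of the pathway were brightest at the start of treatment, were lower from 12 h, rose in part at 24 h and declined again thereafter. Of the 16 enzymes 12 were brightest at 0 or 3 h, and the lowest array lay between 12 and 21 h for 6 and between 36 and 45 h for 7. Relative to the mean of each gene over time, the median of the 16 enzymes was 0.66, 0.54, 0.29 and 0.26 log2 units at 0, 3, 6 and 9 h. At 12, 15, 18 and 21 h it was -0.30, -0.27, -0.16 and -0.21. At 24 h it stood at 0.13, followed by 0.06, 0.06 and -0.14 at 27, 30 and 33 h. From 36 to 45 h it was -0.07, -0.16, -0.15 and -0.28. At 0 h, 14 of the 16 enzymes were above their own mean, against 0 at 15 h, 14 at 24 h and 3 at 45 h. In RNA of a whole culture, fewer cells that express a gene and less RNA per cell cannot be told apart.

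**Figure D1:**
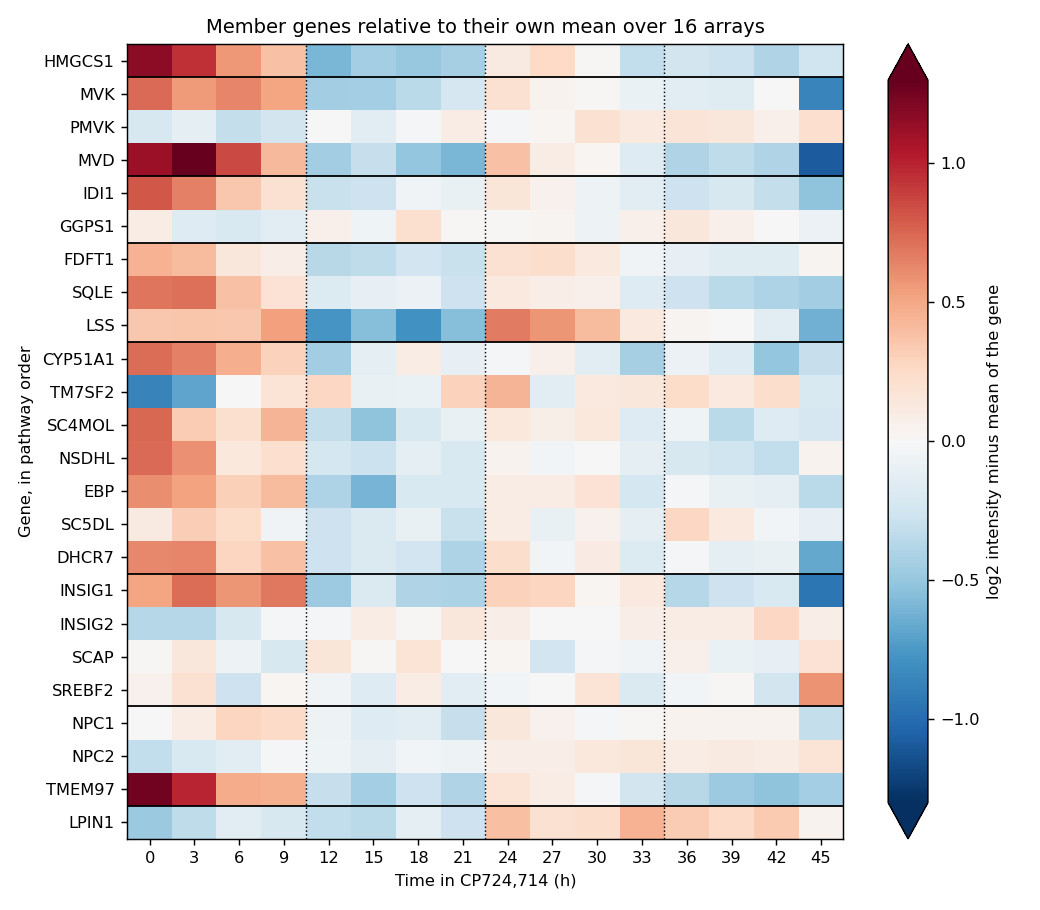
Log2 intensity of the 24 detected member genes (rows, in pathway order) on each of the 16 arrays (columns, hours in CP724,714), relative to the mean of the gene over all arrays. Most enzymes are above their mean from 0 to 9 h and below it from 12 to 21 h, while PMVK, INSIG2, NPC2 and LPIN1 start below their mean and rise over 45 h. TM7SF2 also starts below its mean, rises mainly from 0 to 9 h, and is below its mean again at 45 h.

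Proliferation genes took similar steps at 12 and 24 h, but lay lower relative to their own means from 36 h. The 23 cell cycle genes, a list of replication and mitosis genes, had a median relative to their own means of 1.16 at 0 h and 0.93 at 9 h. It was -0.05 at 12 h, -0.25 at 21 h and 0.22 at 24 h, and on the arrays of 36 and 45 h it reached -1.13 and -1.42. From the 21 h to the 24 h array 20 of the 23 were higher, as were 14 of the 16 enzymes and 48.7% of all probes. All 23 fell by the linear test (21.7% of all probes), with a median linear change of -2.68. At 24 to 33 h 1 of them was higher and 1 lower than at 12 to 21 h by the test (5.2% and 4.11% of all probes), and 5 of 16 sterol enzymes were higher. The difference between these lists was not tested. Both lists stepped down between 9 and 12 h, and the part of the fall in cell cycle genes in the step of the sterol genes was not tested.

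**Figure D2:**
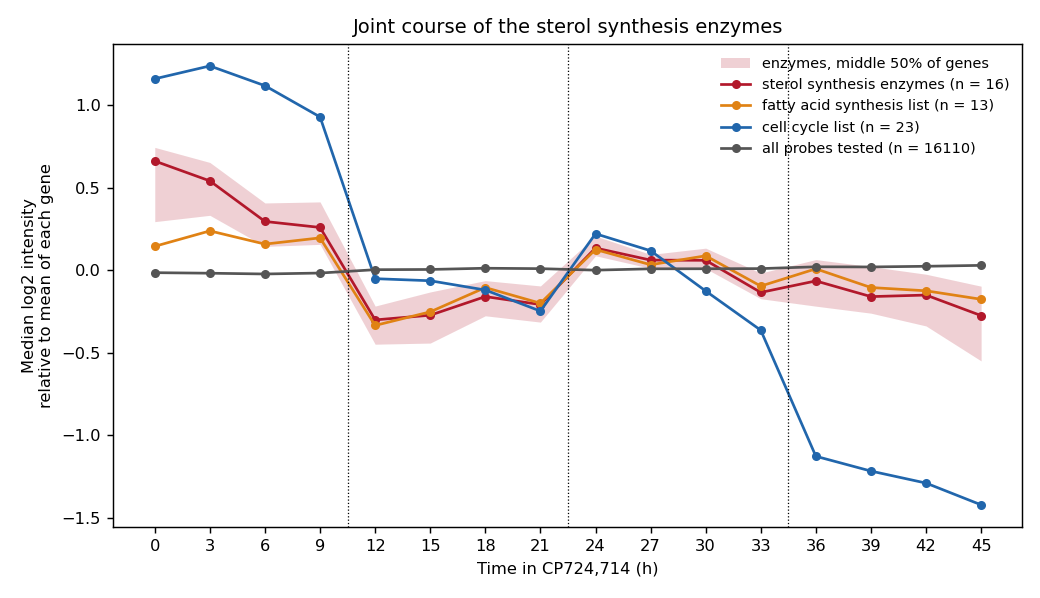
Median log2 intensity relative to the mean of each gene, against hours in CP724,714, for the sterol synthesis enzymes (shading: middle 50% of genes), all probes tested, the cell cycle list and the fatty acid synthesis list. The enzyme median falls from 0.66 at 0 h to -0.30 at 12 h, is 0.13 at 24 h and ends at -0.28, while the cell cycle median ends at -1.42.

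By the F-test of a cubic course in hours (limma, Benjamini-Hochberg over all 16110 probes, threshold 0.05), 19 of the 29 member probes changed with time, against 51.3% of all probes. They represented 18 of the 24 genes and 13 of the 16 enzymes (81.2%). A linear trend was called as a fall in 12 genes, 10 of them enzymes (62.5% of enzymes), where 21.7% of all probes fell. It was called as a rise in 5 genes, of which 2 were enzymes, where 26% of all probes rose. A linear change of -1 or below was measured in 3 genes, HMGCS1, MVD and TMEM97, and in 6.92% of all probes. The median linear change over 45 h was -0.60 log2 units over the enzymes, -0.41 over the 24 genes and 0.05 over all probes tested. The course departed from a straight line in 13 genes, 11 of them enzymes, against 19.3% of all probes. This count was lower without the 3 h array (7 probes), the 12 h array (7) or the 15 h array (8). Whether the share over all probes was also lower in those runs was not compared. Leaving out the 0 h array moved the enzyme median to -0.41, and a term for a step between 21 and 24 h moved it to -1.28.

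Within each set of arrays, where no border is crossed, the enzymes declined in the first, the third and the last set. The array at 9 h was below that at 0 h for 14 of 16 enzymes (47.9% of all probes), with a median difference of -0.27 log2 units. Between 12 and 21 h 5 were lower on the last array (49.8% of all probes) and the median difference was 0.08. Between 24 and 33 h 14 were lower (48% of all probes) by a median of -0.30, and between 36 and 45 h 13 were lower (49%) by a median of -0.24. Each of these differences compares single arrays, and the 45 h array had the fewest detected probes of all, 14110. With the set as a factor beside a straight line, the trend was negative in 14 of 16 enzymes and in 7830 of all 16110 probes. MVD was the only member past the threshold (limma, linear change -2.61, adjusted p = 0.040), where 145 of all probes were called. That value is a slope within sets scaled to 45 h, and its 45 h array differed from its 0 h array by -2.19.

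The first hours held no call. For the mean of 3 to 9 h against the single 0 h array 0 member probes passed (limma, against 2.33% of all probes, 1.14% as higher and 1.19% as lower), and 8 (27.6%) had an unadjusted p under 0.05, as did 16.1% of all probes. The enzyme median was -0.24, with HMGCS1 at -0.53 ± 0.18 (SE, limma adjusted p = 0.136) and NSDHL at -0.43 ± 0.15 (limma adjusted p = 0.153). TMEM97 was nearest to a call, at -0.61 ± 0.16 (limma adjusted p = 0.0566). Without the 3 h array 7 probes were called, HMGCS1, IDI1, SQLE, NSDHL and TMEM97 as lower and TM7SF2 and NPC2 as higher. Without the 33 h or the 45 h array 1 was called in each case, so that the answer for these hours depended on single arrays. These counts were not compared with the share of all probes called in the same runs. Between 3 and 6 h 14 of 16 enzymes were lower at 6 h, with a median difference of -0.20.

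The change between 3 to 9 h and 12 to 21 h was the broadest of the course. Of the 24 genes 16 were lower and 2 higher at 12 to 21 h, and of the 16 enzymes 13 were lower (81.2%) and 1 higher, where 12.9% of all probes were lower and 14.8% higher. The enzyme median difference was -0.60 log2 units, against 0.04 over all probes. The 4 arrays of 12 to 21 h all lay below the 3 arrays of 3 to 9 h for 13 of the 16 enzymes and for 15.4% of all probes. From the 9 h to the 12 h array alone 13 enzymes were lower and 3 higher, with a median difference of -0.57, where 51.6% of all probes were higher. This step coincides with a border between sets of arrays. The windows were cut at such borders, which were seen in the same values, and the adjusted p-values do not allow for that choice. Under median scaling of the arrays, which moved the median of all probes to -0.11 for this contrast, the enzyme median was -1.10 and again 13 enzymes were lower, and the 2 higher genes, GGPS1 and INSIG2, had negative differences. Of the 20 called probes 17 kept their call whichever array was left out; INSIG2, GGPS1 and NPC1 did not.

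At 24 to 33 h 9 of the 24 genes were higher than at 12 to 21 h and 0 lower, where 5.2% of all probes were higher and 4.11% lower. The enzymes among them were HMGCS1, FDFT1, LSS, SC4MOL and EBP, and the others were INSIG1, NPC2, TMEM97 and LPIN1. The enzyme median difference was 0.25, against -0.01 over all probes. The rise did not return most enzymes to their early level. The mean at 24 to 33 h was below that at 3 to 9 h in 12 of 16, with a median difference of -0.36. The same held for 7594 of all 16110 probes. Under median scaling only LSS, INSIG1 and LPIN1 were called, and leaving out the 12 h array left 6 probes. Calls over all probes in these runs were not set beside them.

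From 24 to 33 h to 36 to 45 h 5 genes fell and 0 rose, where 4.01% of all probes changed, 3.11% as a fall and 0.9% as a rise. They were MVD, SQLE, LSS, INSIG1 and TMEM97. Without the 24 h array 2 were called, without the 27 h array 3, and under median scaling 2, LSS and INSIG1. The share of all probes called in those runs was not compared. The means at 36 to 45 h were below those at 3 to 9 h in 13 of 16 enzymes and in 7309 of all 16110 probes. At 45 h itself 14 enzymes were below their 0 h value, as were 47% of all probes.

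**Figure D3:**
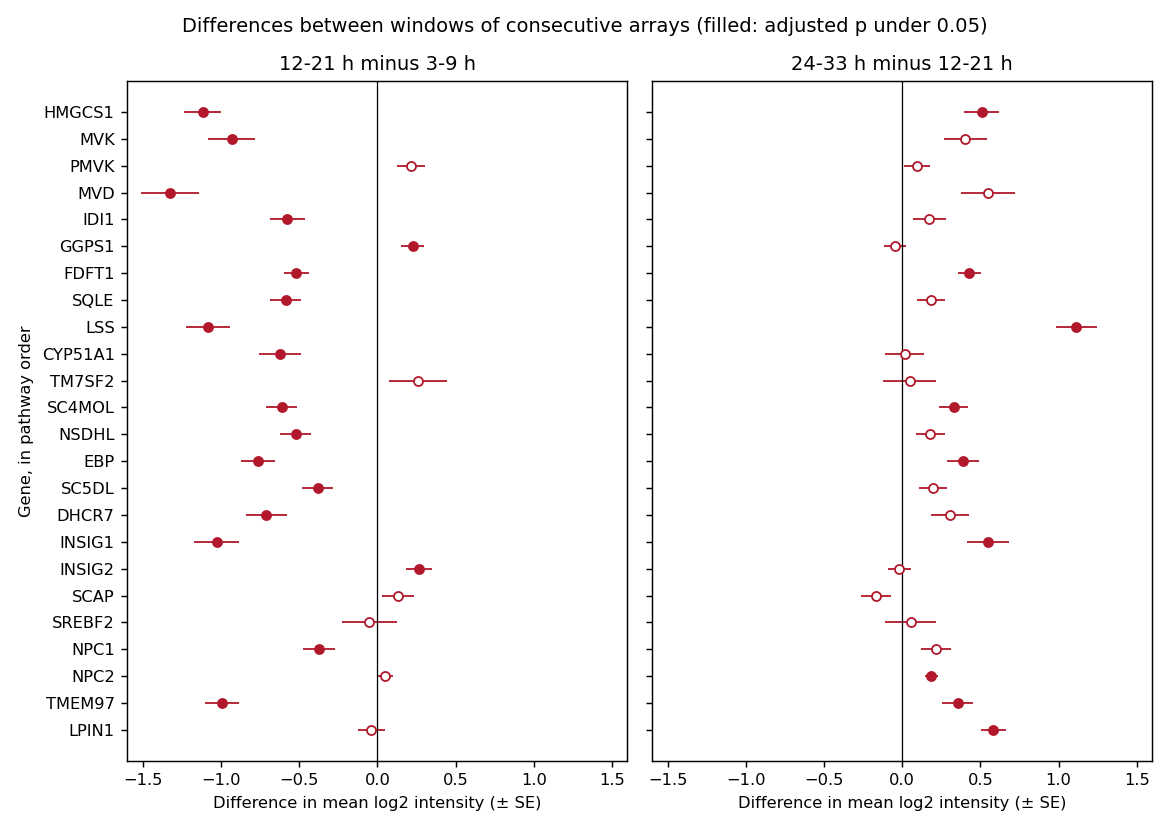
Difference in mean log2 intensity (± SE from limma) between consecutive windows of arrays for each of the 24 member genes, in pathway order. Filled points have an adjusted p under 0.05: 13 enzymes are filled below 0 at 12 to 21 h against 3 to 9 h, and 5 enzymes are filled above 0 at 24 to 33 h against 12 to 21 h.

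HMGCS1, the cytosolic HMG-CoA synthase that commits acetyl units to the mevalonate route, was the only detected member of the entry step. Its log2 intensity was 14.78, 14.56 and 14.18 at 0, 3 and 6 h, and at 9 h it differed from the 0 h array by -0.78. At 12, 15, 18 and 21 h it was 13.02, 13.17, 13.13 and 13.18, below every earlier array. It stood at 13.74, 13.87, 13.63 and 13.30 at 24 to 33 h and at 13.38, 13.34, 13.22 and 13.36 at 36 to 45 h. The level at 12 to 21 h was 2.17-fold lower than at 3 to 9 h (-1.12 ± 0.12, limma adjusted p = 1.73e-06) and the later rise was 0.51 ± 0.11 (limma adjusted p = 0.00565). Under median scaling that rise was 0.61 with a limma adjusted p of 0.0519. Over 45 h the linear change was -1.02 ± 0.19 (limma adjusted p = 2.19e-04). ACAT2, which makes the acetoacetyl-CoA that HMGCS1 uses, was not detected on any array, with raw signals between 153 and 221.

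The 3 enzymes of mevalonate itself did not move together. MVD, which decarboxylates mevalonate pyrophosphate to the first isoprenoid, had the largest linear fall of the 24 genes, -1.52 ± 0.23 (limma adjusted p = 2.27e-05). It read 12.24, 12.44, 11.99 and 11.55 from 0 to 9 h, and then 10.68, 10.83, 10.62 and 10.53 from 12 to 21 h. At 24 h it was 11.51 and declined to 10.97 at 33 h. It read 10.74, 10.80 and 10.74 at 36, 39 and 42 h, and 10.05 at 45 h, its lowest array. The first drop was 2.51-fold (-1.33 ± 0.19, limma adjusted p = 3.53e-05), and the rise of 0.55 ± 0.17 at 24 to 33 h missed the threshold (limma adjusted p = 0.0521). The late fall, -0.64 ± 0.17 (limma adjusted p = 0.0419), was called in 6 of the 16 runs that left out 1 array.

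MVK, which adds the first phosphate to mevalonate, lay between 10.19 and 10.41 from 0 to 9 h and between 9.22 and 9.45 from 12 to 21 h. It was 1.91-fold lower in the second window than at 3 to 9 h (-0.93 ± 0.15, limma adjusted p = 1.55e-04). PMVK, which adds the next phosphate, rose instead, by 0.45 ± 0.09 over 45 h (limma adjusted p = 3.87e-04), from 10.77 at 0 h to 11.20 at 45 h. Its lowest array was that at 6 h (10.67) and its course did not depart from a straight line by the test (limma adjusted p = 0.687). With a term for a step between 21 and 24 h the rise of PMVK was 0.64 and its adjusted p 0.0549 (limma).

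Of the isoprenoid enzymes, IDI1, which interconverts the isoprenoid building blocks, fell by 0.89 ± 0.12 over 45 h (limma adjusted p = 3.24e-06), from 12.18 at 0 h to 10.85 at 45 h. GGPS1, which makes geranylgeranyl pyrophosphate for protein prenylation and so lies beside the route to sterols, lay between 12.65 and 13.05 on all arrays. Its linear change was 0.10 ± 0.09 (limma adjusted p = 0.408). It was 0.23 ± 0.07 higher at 12 to 21 h (limma adjusted p = 0.0278), but -0.18 under median scaling, and the call was lost without the 18 h array (limma adjusted p = 0.0977). A dimmer second GGPS1 probe had a linear change of 0.04 ± 0.17 and a difference of -0.27 ± 0.16 at 12 to 21 h (limma adjusted p = 0.216).

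The 3 enzymes that make squalene and close it into lanosterol were all lower at 12 to 21 h, and they differed afterwards. FDFT1, squalene synthase, read 15.16, 15.12, 14.86 and 14.80 from 0 to 9 h and 14.35, 14.39, 14.47 and 14.43 from 12 to 21 h. It then rose by 0.43 ± 0.07 (limma adjusted p = 7.27e-04), was 14.75 at 45 h, and had no linear trend past the threshold (-0.27 ± 0.13, limma adjusted p = 0.0981). Its trend was called without the 12 h array (-0.34, limma adjusted p = 0.0343) or the 45 h array (-0.35, limma adjusted p = 0.0363), and with cyclic loess, array weights or a step between 21 and 24 h. SQLE, squalene epoxidase and a rate-setting step of the route, was 14.67 at 0 h and 13.80 at 12 h, and after 14.10 at 24 h it was 13.52 at 45 h. Its linear change was -0.93 ± 0.11 (limma adjusted p = 9.08e-07). The late fall of SQLE was -0.40 ± 0.09 (limma adjusted p = 0.0139), and was lost without the 24 h array (limma adjusted p = 0.068).

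LSS, lanosterol synthase, returned to its early level at 24 h. It read 12.15, 12.16, 12.15 and 12.33 on the arrays of 0 to 9 h, with no decline in those hours. The next 4 arrays read 11.04, 11.24, 11.02 and 11.24, and those of 24 to 33 h 12.48, 12.37, 12.22 and 11.93. From 36 h it declined through 11.84, 11.81 and 11.66 to 11.18. The drop was -1.08 ± 0.14 (limma adjusted p = 1.73e-05), the rise 1.11 ± 0.13 (limma adjusted p = 2.26e-05) and the late fall -0.63 ± 0.13 (limma adjusted p = 0.00626). A smooth cubic followed these steps poorly, and neither the course (limma adjusted p = 0.0581) nor the linear trend (-0.29 ± 0.30, limma adjusted p = 0.455) was called. Both the drop and the rise of LSS fell on borders between sets of arrays. A dimmer LSS probe also dropped at 12 to 21 h (-0.65 ± 0.16, limma adjusted p = 0.00537), but its difference was not called at 24 to 33 h (0.34 ± 0.15, limma adjusted p = 0.187) or at 36 to 45 h (0.09 ± 0.15, limma adjusted p = 0.842). A probe of LSS detected on 8 arrays had no called drop (0.05 ± 0.23, limma adjusted p = 0.9).

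**Figure D4:**
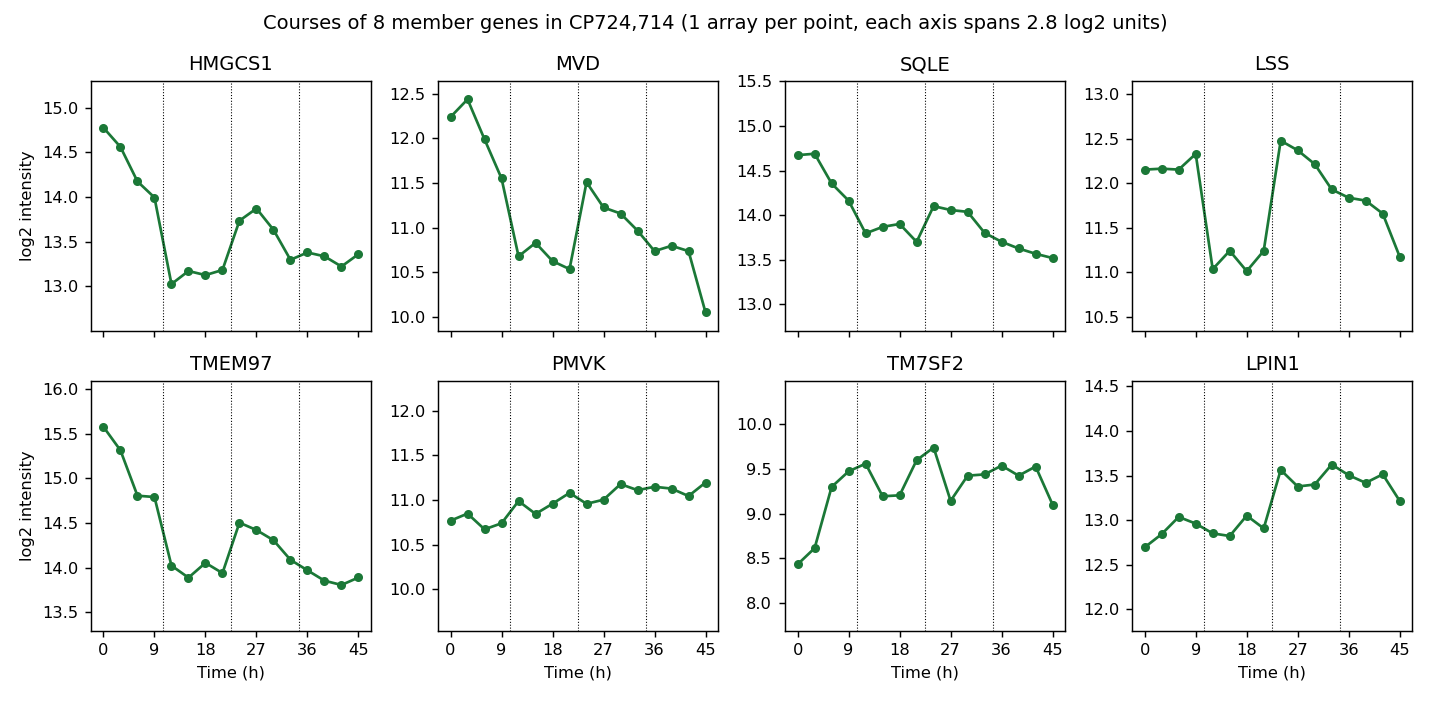
Log2 intensity of HMGCS1, MVD, SQLE, LSS, TMEM97, PMVK, TM7SF2 and LPIN1 against hours in CP724,714, with 1 array per point, panels of equal span and dotted lines at the borders between sets of 4 arrays. LSS falls from 12.33 at 9 h to 11.04 at 12 h and is 12.48 at 24 h, while LPIN1 goes from 12.91 at 21 h to 13.56 at 24 h.

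The later steps turn lanosterol into cholesterol by removing methyl groups and moving or reducing double bonds, and 6 of their 7 detected enzymes were lower at 12 to 21 h. CYP51A1, the lanosterol demethylase, fell by 0.90 ± 0.15 over 45 h (limma adjusted p = 6.89e-05), from 12.62 at 0 h to 11.60 at 45 h, and showed no rise at 24 to 33 h (0.02 ± 0.12, limma adjusted p = 0.965). SC4MOL and NSDHL, which act in succession in the removal of methyl groups, had linear changes of -0.58 ± 0.15 (limma adjusted p = 0.0042) and -0.61 ± 0.12 (limma adjusted p = 2.62e-04). EBP, the sterol isomerase, changed by -0.54 ± 0.16 (limma adjusted p = 0.0101), and DHCR7, which makes the last reduction in one branch of the route, by -0.74 ± 0.15 (limma adjusted p = 3.33e-04).

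Single arrays decided several of these trends. Without the 0 h array the linear change of SC4MOL was -0.38 (limma adjusted p = 0.0803) and that of EBP -0.40 (limma adjusted p = 0.0676), and without the 3 h array that of EBP was -0.44 (limma adjusted p = 0.0576). The drops of both genes at 12 to 21 h, -0.61 ± 0.10 (limma adjusted p = 1.44e-04) and -0.76 ± 0.11 (limma adjusted p = 4.76e-05), kept their calls without any single array. A second SC4MOL probe fell likewise (-0.70 ± 0.20, limma adjusted p = 0.00718), and was also lost without the 0 h array (-0.52, limma adjusted p = 0.0649). A dim probe of SC4MOL detected on 8 arrays had a linear change of -0.18 ± 0.33 (limma adjusted p = 0.688). The rises of SC4MOL and EBP at 24 to 33 h were each called in 11 of the 16 runs that left out 1 array.

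The remaining late enzymes were SC5DL and TM7SF2. SC5DL, the sterol desaturase, was lower at 12 to 21 h (-0.38 ± 0.10, limma adjusted p = 0.0064), but ended near its start, at 13.40 at 0 h and 13.18 at 45 h, with a linear change of -0.08 ± 0.12 (limma adjusted p = 0.612). TM7SF2, a sterol reductase whose reaction the nuclear envelope protein LBR also carries out, ran the other way. It was 8.43, 8.61, 9.30 and 9.47 from 0 to 9 h, and lay between 9.10 and 9.74 thereafter. Its linear change of 0.53 ± 0.17 (limma adjusted p = 0.0165) rested on the first arrays, and was 0.28 without the 0 h array (limma adjusted p = 0.263) and 0.37 without the 3 h array (limma adjusted p = 0.118). LBR fell by 0.70 ± 0.11 (limma adjusted p = 2.74e-05).

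The genes that govern SREBP2 split in direction. INSIG1, itself a target of SREBP2 that retains SCAP in the endoplasmic reticulum, followed the enzymes, and INSIG2, its relative with the same retaining role, rose. The log2 intensity of INSIG1 was 9.87, 10.08, 9.93 and 10.04 from 0 to 9 h and 8.88, 9.17, 8.97 and 8.94 from 12 to 21 h. It was 9.66, 9.64, 9.38 and 9.48 from 24 to 33 h and 8.99, 9.09, 9.16 and 8.42 from 36 to 45 h. The 12 to 21 h arrays lay 2.04-fold below those of 3 to 9 h (-1.03 ± 0.15, limma adjusted p = 3.79e-05). The later rise of 0.55 ± 0.13 (limma adjusted p = 0.0131) and late fall of -0.62 ± 0.13 (limma adjusted p = 0.00833) were also called, and the linear change was -0.98 ± 0.24 (limma adjusted p = 0.00227).

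INSIG2 was 11.99, 11.99, 12.15 and 12.33 from 0 to 9 h, so that most of its rise was within the first set of arrays. From 12 h on it lay between 12.35 and 12.63, above every earlier array. Its linear change was 0.43 ± 0.08 (limma adjusted p = 1.02e-04), and 0.36 under median scaling (limma adjusted p = 0.0565). The difference of 0.27 ± 0.08 between 12 to 21 h and 3 to 9 h (limma adjusted p = 0.021) was not called without the 3 h array (0.18, limma adjusted p = 0.126).

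SREBF2, the gene of SREBP2, passed none of the tests made. Its probe was dim but detected on all 16 arrays. It was 7.54 at 0 h, lay between 7.23 and 7.69 from 3 to 42 h and was 8.07 at 45 h, with a linear change of 0.12 ± 0.17 (limma adjusted p = 0.61). At 12 to 21 h it was -0.05 ± 0.18 from the earlier window (limma adjusted p = 0.859). The offset added with the background correction makes changes of a dim probe smaller, so these sizes are not comparable with those of a bright probe. Without background correction the difference of SREBF2 at 12 to 21 h was -0.03. SCAP, the escort, lay between 11.16 and 11.60 and changed by -0.03 ± 0.11 (limma adjusted p = 0.83). Transcript levels do not measure the cut, active form of SREBP2.

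**Figure D5:**
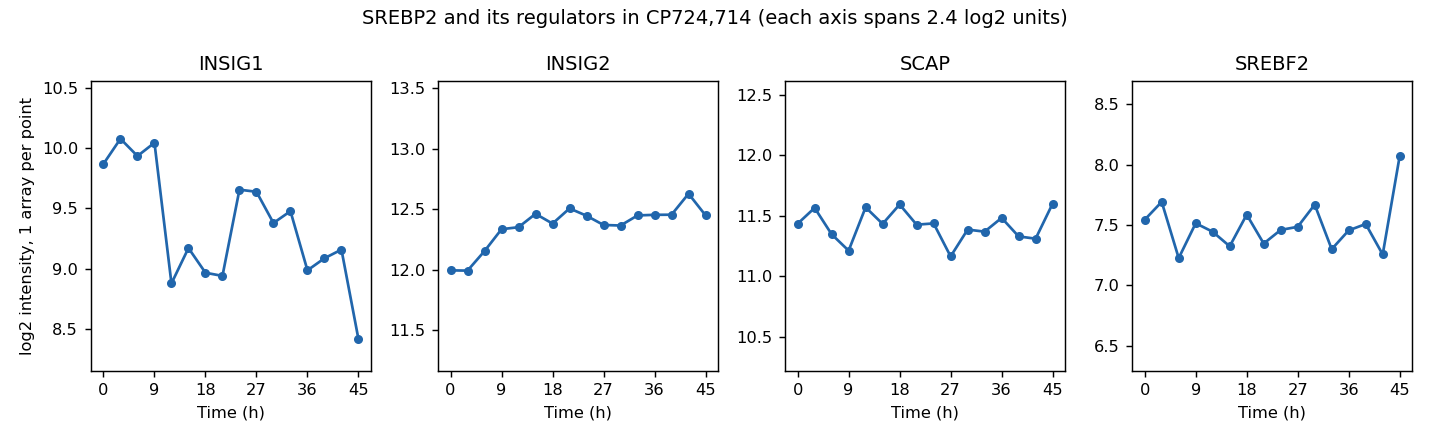
Log2 intensity of SREBF2, SCAP, INSIG1 and INSIG2 against hours in CP724,714, with 1 array per point and axes of equal span. INSIG1 drops from 10.04 at 9 h to 8.88 at 12 h and ends at 8.42, INSIG2 goes from 11.99 at 0 h to 12.33 at 9 h, and SREBF2 and SCAP keep within a narrow band until the last array.

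Among the carriers, TMEM97, a protein of the endoplasmic reticulum that binds NPC1, moved with the enzymes. Its log2 intensity was 15.58, 15.31, 14.81 and 14.79 from 0 to 9 h, and 14.02, 13.89, 14.05 and 13.94 from 12 to 21 h. It was 14.50, 14.42, 14.31 and 14.09 from 24 to 33 h and 13.97, 13.85, 13.80 and 13.89 from 36 to 45 h. Between 3 to 9 h and 12 to 21 h it dropped 1.99-fold (SE 0.11 log2 units, limma adjusted p = 2.04e-06) and its linear change was -1.29 ± 0.16 (limma adjusted p = 1.97e-06). Its rise of 0.35 ± 0.10 at 24 to 33 h (limma adjusted p = 0.0298) was lost without the 24 h array (limma adjusted p = 0.102), as was its late fall of -0.45 ± 0.10 (limma adjusted p = 0.0103 with all arrays and 0.0587 without that one).

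NPC1 and NPC2, which together export cholesterol from lysosomes, did not share a course. NPC1 was lower at 12 to 21 h (-0.37 ± 0.10, limma adjusted p = 0.0111, or 0.0545 without the 6 h array) and had a linear change of -0.16 ± 0.13 (limma adjusted p = 0.337). NPC2 went from 15.46 at 0 h to 15.95 at 45 h, a linear change of 0.41 ± 0.05 (limma adjusted p = 2.55e-06). Under median scaling this was 0.25 (limma adjusted p = 0.614), and with a step between 21 and 24 h 0.15 (limma adjusted p = 0.416). Its raw signal reached 93.0% of the brightest signal of an array, near the top of the scale. STARD4, a sterol carrier of the cytosol, was detected on 1 array, with raw signals between 163 and 238.

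LPIN1, a phosphatidate phosphatase of triglyceride synthesis whose gene is also a target of SREBP factors, was not lower at 12 to 21 h (-0.04 ± 0.09, limma adjusted p = 0.782). It was 12.70 at 0 h, lay between 12.82 and 13.05 from 3 to 21 h and between 13.38 and 13.62 from 24 to 33 h. That rise of 0.58 ± 0.08 (limma adjusted p = 1.06e-04) was a single step at a border between sets. The linear change was 0.78 ± 0.12 (limma adjusted p = 1.78e-05), and 0.02 once a step between 21 and 24 h was allowed (limma adjusted p = 0.971).

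The likeness of each gene to the pathway was described by the Pearson correlation of its 16 log2 values with the mean of the other enzymes. Outside the enzymes TMEM97 (0.95) and INSIG1 (0.90) were most alike, followed by NPC1 (0.69). Among the enzymes r was 0.95 for EBP, 0.94 for HMGCS1, DHCR7 and MVD, 0.93 for MVK and IDI1, and 0.77 for LSS. It was -0.38 for GGPS1, -0.57 for TM7SF2 and -0.64 for PMVK, and INSIG2 had the lowest value, -0.80. SREBF2 was at -0.01. These values share the arrays, their normalization and the steps between sets, and are a description. Of the 120 pairs of enzymes 81 correlated positively, with a median of 0.71 and a range from -0.78 for NSDHL with TM7SF2 to 0.96 for SQLE with IDI1.

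Promoters were read to see what the genes that moved together share in sequence. RefSeq windows of assembly GRCh38.p14, from 250 bases before to 50 after the start of each gene, were given for 25 of the 28 members. SC4MOL stands there under the symbol MSMO1 and SC5DL under SC5D. ACAT2, FDFT1 and SQLE had no window, so that FDFT1 and SQLE, both lower at 12 to 21 h, are outside the counts below. The NF-Y motif CCAAT, searched on both strands, was present in 11 of the 14 members that were lower at 12 to 21 h (78.6%), in 2 of the 8 tested members that were not (25%) and in 35.6% of all 27305 promoters. At least 3 copies were present in 7 of these 14, MVK, NSDHL, SC4MOL, MVD, IDI1, EBP and TMEM97, in 0 of the 8 and in 3.36% of all promoters. MVK and NSDHL held 5 copies each and SC4MOL 4. A pair that overlaps on opposite strands, as in NSDHL and IDI1, was counted as 2 copies. The difference was not tested.

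The 220 bases upstream of the start are shown for the 3 enzymes with most copies, for TMEM97, which moved with them, for PMVK, which rose and has none in its window, and for SREBF2, which passed no test. They are written 5′ to 3′ along the gene, with capitals on each CCAAT or its reverse complement ATTGG and, in SREBF2, on the sterol motif TCACCCCAC.
MVK, chr12:109573574-109573793, plus strand: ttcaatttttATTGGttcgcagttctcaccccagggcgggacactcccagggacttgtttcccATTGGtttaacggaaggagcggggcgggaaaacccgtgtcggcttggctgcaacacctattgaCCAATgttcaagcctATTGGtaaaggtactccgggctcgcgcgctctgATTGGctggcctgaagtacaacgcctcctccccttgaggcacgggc
SC4MOL, chr4:165327449-165327668, plus strand: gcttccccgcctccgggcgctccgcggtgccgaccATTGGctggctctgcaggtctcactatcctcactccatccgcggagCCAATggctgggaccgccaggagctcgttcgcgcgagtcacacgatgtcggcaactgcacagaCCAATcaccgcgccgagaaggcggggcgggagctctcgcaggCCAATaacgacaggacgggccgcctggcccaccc
NSDHL, chrX:152830843-152831062, plus strand: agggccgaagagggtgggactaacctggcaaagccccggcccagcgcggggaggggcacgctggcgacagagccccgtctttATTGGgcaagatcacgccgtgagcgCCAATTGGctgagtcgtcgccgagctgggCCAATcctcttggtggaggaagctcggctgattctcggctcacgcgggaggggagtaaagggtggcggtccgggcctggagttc
TMEM97, chr17:28318980-28319199, plus strand: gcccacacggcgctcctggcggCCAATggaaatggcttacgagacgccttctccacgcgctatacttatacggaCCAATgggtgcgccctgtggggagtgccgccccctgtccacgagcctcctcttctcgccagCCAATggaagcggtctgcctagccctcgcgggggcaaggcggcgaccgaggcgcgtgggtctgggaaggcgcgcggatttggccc
PMVK, chr1:154936720-154936939, minus strand: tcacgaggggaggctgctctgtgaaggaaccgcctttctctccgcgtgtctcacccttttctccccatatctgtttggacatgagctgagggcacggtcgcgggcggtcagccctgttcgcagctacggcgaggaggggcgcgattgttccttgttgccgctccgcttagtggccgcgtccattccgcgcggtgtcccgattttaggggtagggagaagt
SREBF2, chr22:41832885-41833104, plus strand: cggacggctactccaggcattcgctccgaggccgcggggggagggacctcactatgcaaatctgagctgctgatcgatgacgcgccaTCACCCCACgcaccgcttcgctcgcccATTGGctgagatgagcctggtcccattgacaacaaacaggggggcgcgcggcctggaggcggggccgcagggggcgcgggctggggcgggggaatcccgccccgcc
In NSDHL a pair of copies overlaps on opposite strands, and 1 more lies upstream of the bases shown.

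The sterol regulatory element was searched as TCACNCCAC on both strands, and as its core CACNCCAC, which is contained in it. Among the 22 tested members with a promoter the longer form was present only in SREBF2, between 133 and 125 bases upstream, and in 1.17% of all promoters. The core was present in IDI1, SC5DL and INSIG1, 3 of the 14 lower members, in 1 of the 8 others and in 5.74% of all promoters. The GC box GGGCGG was present in 13 of the 14, 6 of the 8 and 43.8% of all promoters, and the E-box CACGTG in 3, 1 and 7.27%. A match is a run of letters and not a bound site, and an element that differs by 1 base or lies outside the window is not counted.

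Neighbouring genes of sterol regulation, isoprenoid use and fatty acid synthesis were read from lists. Of 13 sterol regulation genes outside the module 5 rose over 45 h and 1 fell, where 26% of all probes rose and 21.7% fell. OSBP, which moves cholesterol to the Golgi, rose by 1.02 ± 0.07 (limma adjusted p = 7.79e-10), and SREBF1, the gene of the related factor SREBP1, was among the others that rose (0.58 ± 0.13, limma adjusted p = 9.05e-04). SPFH2, another symbol of the INSIG partner ERLIN2, rose by 0.69 ± 0.10 (limma adjusted p = 7.28e-06), while a dimmer probe under ERLIN2 had a linear change of -0.12 (limma adjusted p = 0.401), and they are counted as 1 gene by the brighter probe. LBR was the gene that fell.

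Of 12 genes of the isoprenoid branches 2 rose and 3 fell, close to the shares over all probes (26% and 21.7%). The largest falls were in PDSS1 and COQ2, which build and attach the side chain of coenzyme Q, with linear changes of -1.88 ± 0.14 (limma adjusted p = 3.47e-09) and -1.02 ± 0.16 (limma adjusted p = 2.14e-05). FNTA, a subunit shared by protein prenyltransferases, rose by 0.41 ± 0.09 (limma adjusted p = 6.07e-04) and DHDDS, which makes dolichol precursors, by 0.29 ± 0.11 (limma adjusted p = 0.0349).

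Of 13 fatty acid synthesis genes 6 fell and 3 rose over 45 h (21.7% and 26% of all probes). At 12 to 21 h 9 were lower than at 3 to 9 h (12.9% of all probes), and 5 were higher at 24 to 33 h than before (5.2%). The desaturases FADS1 and FADS2 fell, with linear changes of -2.09 ± 0.29 (limma adjusted p = 6.31e-06) and -1.75 ± 0.32 (limma adjusted p = 1.54e-04). THRSP, a lipogenic regulator, and GPAM, which starts glycerolipid synthesis, rose by 1.68 ± 0.34 (limma adjusted p = 3.85e-04) and 0.86 ± 0.14 (limma adjusted p = 3.23e-05). The list's median linear change was -0.22, against -0.60 for the sterol enzymes, and this difference was not tested.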

How the data were processed

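Expression was measured on 16 Illumina bead arrays, 1 per time point, each holding biotin-labelled cRNA of 1 culture. The deposited table gives a linear signal intensity, which the authors had neither background corrected nor normalized, and a detection p-value, both per array. The study's methods name the Illumina human Ref8v2 array for time courses, the scanning software was not given in the sources used here, and no genome build is stated. Samples were grouped by the time in their labels.

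In R 4.3.3, neqc of limma 3.58.1 (normexp, offset 16) removed background by way of the deposited detection p-values, followed by quantile normalization and log2. The offset makes changes of dim probes smaller. A probe was tested where its detection p was below 0.05 on 3 or more arrays. lmFit and eBayes (trend by intensity) fitted a cubic in hours. An F-test on all 3 coefficients defined change with time, the first-order coefficient scaled to 45 h gave the linear change, and the F-test of the other 2 defined departure from a straight line. A second fit used 5 windows, the 0 h array alone, 3 to 9 h, and the later sets of 4 arrays. Their borders are those of the sets seen in the values, and the p-values of this fit do not allow for that. The single 0 h array was assumed to vary like the others, and arrays of a window are not replicates. Tests were two-sided and adjusted by Benjamini-Hochberg over all probes tested, at 0.05. The median residual SD was 0.19 log2 units.

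Tested on simulated data of 16110 probes with 200 changed, the linear test recovered 79% with 5.95% of its calls false. The contrast of 12 to 21 h with 3 to 9 h recovered 82% with 4.65% false. The simulated probes had independent scatter around a flat mean and no steps between sets, whereas 51.3% of the real probes changed with time. These shares therefore need not hold for the real arrays. The brightest probe by its mean stands for a gene, and further probes are given beside it. All members are reported, and of the lists outside the module the 2 largest rises and the 2 largest falls past the threshold, or where a result turns on a gene. The members and lists were chosen with earlier results of these data known. Promoters came from a RefSeq table of GRCh38.p14. The number of arrays limits the precision. Alternatives were no background correction, an offset of 50, median scaling, cyclic loess, other filters, array weights, a spline, a step at 24 h, sets of 4 arrays as a factor, a line within windows, and each array left out. Plots were made in matplotlib 3.10.9 (Python 3.11.15).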

Additional observations from a re-analysis of the deposited data

How the results depend on the processing

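The median linear change of the sterol synthesis enzymes was -0.60 and negative under each alternative run. It was -0.77 under median scaling, -1.28 with a step between 21 and 24 h, -0.92 with sets of 4 arrays as a factor, and between -0.67 and -0.41 with 1 array left out. Of 667 linear changes of single probes recomputed, 631 kept direction and side of the threshold, 29 lost the call, 7 gained it and 0 reversed. The number of member probes with a linear trend was 1 with the sets as a factor, where each set spans 9 h, and 14 to 19 with 1 array left out. Departures from a straight line numbered 6 with the step and 7 to 15 with 1 array left out. Changes with time numbered 19 to 21. For 3 to 9 h against 0 h, 1 probe was called with a straight line within windows, and 0 to 7 with 1 array left out. For 12 to 21 h against 3 to 9 h the count was 17 to 20 with 1 array left out. For 24 to 33 h it was 3 under median scaling and 6 to 12 with 1 array left out, and for 36 to 45 h 2 under median scaling and 2 to 7. LSS gained a linear trend with the step (-2.67, limma adjusted p = 5.26e-04). Beside a step or set factor, a linear change is a slope scaled to 45 h and not a measured difference. The 45 h array of LSS differed from its 0 h array by -0.98. The cause of these shifts in counts and trends was not tested. The other alternatives kept these counts within 1.5 times. None of the counts was set beside the share of all probes called in the same run. No paired analysis was possible because a time point held 1 array and 1 replicate number. Depth does not apply to arrays, and dim probes near background, such as the SC4MOL and LSS probes detected on 8 arrays, bound what can be seen.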
